A study of Mus musculus with 6 samples.

Results

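The subunits of respiratory complexes III and IV, cytochrome c, and the proteins that assemble the 2 complexes were examined in RNA of activated mouse T cells. The set held 40 genes, taken by symbol from a gene table of 52550 rows after the version was removed from each Ensembl identifier. All 40 were found in the table, and 39 of them passed the filter on low counts that kept 14786 genes. By role they were 9 subunits of complex III, cytochrome c (Cycs), 10 subunits of complex IV, 6 assembly factors of complex III, 12 assembly factors of complex IV, the tissue form Cox7a1 and the related Cox7a2l. The genes were taken by name, with earlier results of these data known.

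CD3+ T cells were isolated with magnetic beads from spleens of wild-type mice and stimulated for 24 h with an anti-CD3/CD28 activator, which engages the T cell receptor (TCR). In 3 samples the cells were activated without further addition (TCR alone), and in 3 samples DMGV was present at 100 ng/ml (TCR+DMGV). The labels name DMGV (dimethylguanidino valeric acid, a metabolite of methylated arginines). The study's text describes its RNA sequencing with LNY1, a factor purified from fibroblast medium that contained the methylated arginines ADMA and SDMA. The study's figure legend gives LNY1 at the same dose and time as the labels give for DMGV, 100 ng/ml and 24 h. The addition may thus have been LNY1, and its name is given here as labelled. Mice of both sexes, 6 to 8 weeks old, were used, and the strain behind these samples is not given in the sources used here. The comparison addresses whether the addition alters expression of the electron transport chain. In its RNA sequencing with LNY1, the study reports oxidative phosphorylation genes as up-regulated, from pathway enrichment of differentially expressed genes. It names Cox5a, Uqcr10, Atp5g3 and Ndufa5, of which Cox5a and Uqcr10 are in the set examined here.

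Complex III passes electrons from ubiquinol to cytochrome c, and complex IV passes them from cytochrome c to oxygen, while both pump protons across the inner mitochondrial membrane. The catalytic cores include proteins encoded by mitochondrial DNA, around which nuclear-encoded subunits are built in with the help of dedicated assembly factors that deliver heme, copper and iron-sulfur groups. T cells increase mitochondrial mass and respiration as they leave quiescence, and some complex IV subunits exist as separate forms in muscle, lung or testis.

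The counts summed to between 37758725 and 43718867 per sample. The T cell markers carried a summed level per length of 1470 to 1662 FPKM (fragments scaled to transcript length and to library depth) in TCR alone and 1539 to 1763 in TCR+DMGV. The 6 activation markers, among them Il2ra and Cd69, summed to 938 to 1015 and 1003 to 1028 FPKM. The B cell, myeloid, dendritic, NK, erythroid, platelet and muscle and fat lists each summed to 6.51 FPKM or less. The 5 NK markers lay lower in every TCR alone sample (0.455 to 0.734 FPKM) than in every TCR+DMGV sample (1.23 to 1.59 FPKM). The 6 erythroid markers lay the other way, at 5.37 to 6.51 FPKM in TCR alone and 2.44 to 5.01 FPKM in TCR+DMGV. The part of such cells in the results below was not tested. In a principal component analysis of all tested genes, TCR alone replicate 3 and TCR+DMGV replicate 1 stood apart on the first component (42.1 and 42.9, against -34.9 to -10.5 for the other 4), which held 32.2% of the variance. This split crossed the groups.

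None of the 39 tested members passed the threshold of edgeR's quasi-likelihood test, and their smallest Benjamini-Hochberg adjusted p was 0.9995. The share of all tested genes that passed was 0.0135% (2 genes). At an unadjusted p under 0.05, 3 members were higher in TCR+DMGV (Cox5a, Uqcr10 and Lyrm7) and 0 were lower, beside backgrounds of 1.63% of all tested genes higher and 1.56% lower. With DESeq2 no member passed an adjusted p of 0.05 either, and 2 were higher at an unadjusted p under 0.05, beside 1.03% of the 22526 genes in that fit higher and 1.19% lower. The log2 fold changes were small and mostly above 0. They were above 0 for 27 of the 39 members, beside 50.6% of all tested genes, and their median was 0.09 beside 0.0024 for all tested genes. The 95% interval lay within a 1.5-fold change in both directions for 32 members and within a 2-fold change for all 39 that were tested.

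**Figure D1:**
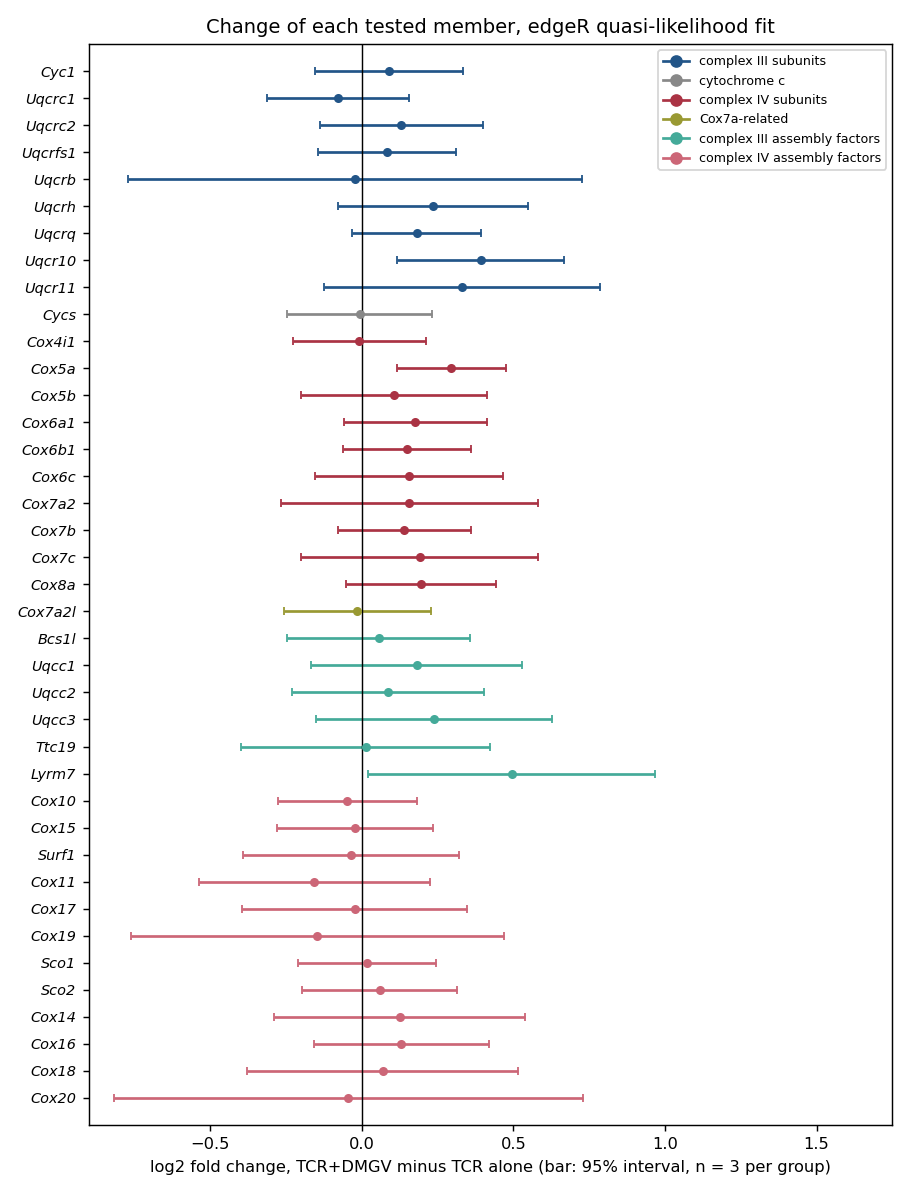
Log2 fold change of each of the 39 tested members (TCR+DMGV minus TCR alone) with its unadjusted 95% interval from the edgeR fit, coloured by role. Only the intervals of Uqcr10, Cox5a and Lyrm7 lie wholly above 0, and those of Uqcrb, Cox20 and Cox19 are among the widest.

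Cox5a encodes a nuclear subunit of complex IV (ENSMUSG00000000088.7, chromosome 9, plus strand, GRCm38). Its normalized read count was 96.7, 91.7 and 86.3 CPM (counts scaled to library size) in TCR alone replicates 1, 2 and 3, and 111.3, 115.8 and 110.0 CPM in TCR+DMGV replicates 1, 2 and 3. The 3 TCR+DMGV samples were all above the 3 TCR alone samples, with means of 112 ± 3.03 and 91.6 ± 5.22 CPM (SD, n = 3 each). The log2 fold change was 0.30 (SE 0.08, 95% interval 0.12 to 0.47), with an unadjusted p of 0.00584 and an exact two-sided permutation p of 0.1, the smallest that 3 against 3 samples allow. It ranged from 0.26 to 0.32 when each sample was left out in turn, and a correction for transcript length lowered it to 0.20 (unadjusted p = 0.101 with limma).

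Uqcr10 encodes a small accessory subunit of complex III (ENSMUSG00000059534.8, chromosome 11, minus strand). It measured 57.9, 64.3 and 67.2 CPM in the TCR alone samples and 79.5, 73.9 and 95.01 CPM in the TCR+DMGV samples. The groups did not overlap, and TCR+DMGV replicate 3 was the highest. The log2 fold change was 0.39 (SE 0.12, 95% interval 0.12 to 0.67), with an unadjusted p of 0.0118 and an exact permutation p of 0.1.

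Lyrm7 encodes a chaperone that stabilizes the Rieske iron-sulfur protein before its insertion into complex III (ENSMUSG00000020268.13, chromosome 11, minus strand). It was the least abundant tested member, with 5.06, 5.27 and 3.41 CPM in TCR alone and 6.38, 6.04 and 6.91 CPM in TCR+DMGV. The groups did not overlap, and TCR alone replicate 3, a library that stood apart on the first component, was the lowest of the 6. The log2 fold change was 0.49 (SE 0.20, unadjusted p = 0.0433, exact permutation p = 0.1), and it was 0.33 with both libraries that stood apart left out. Groups that did not overlap were found for these 3 members in the higher direction and for 0 members in the lower direction, beside 4.92% and 3.94% of all tested genes.

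**Figure D2:**
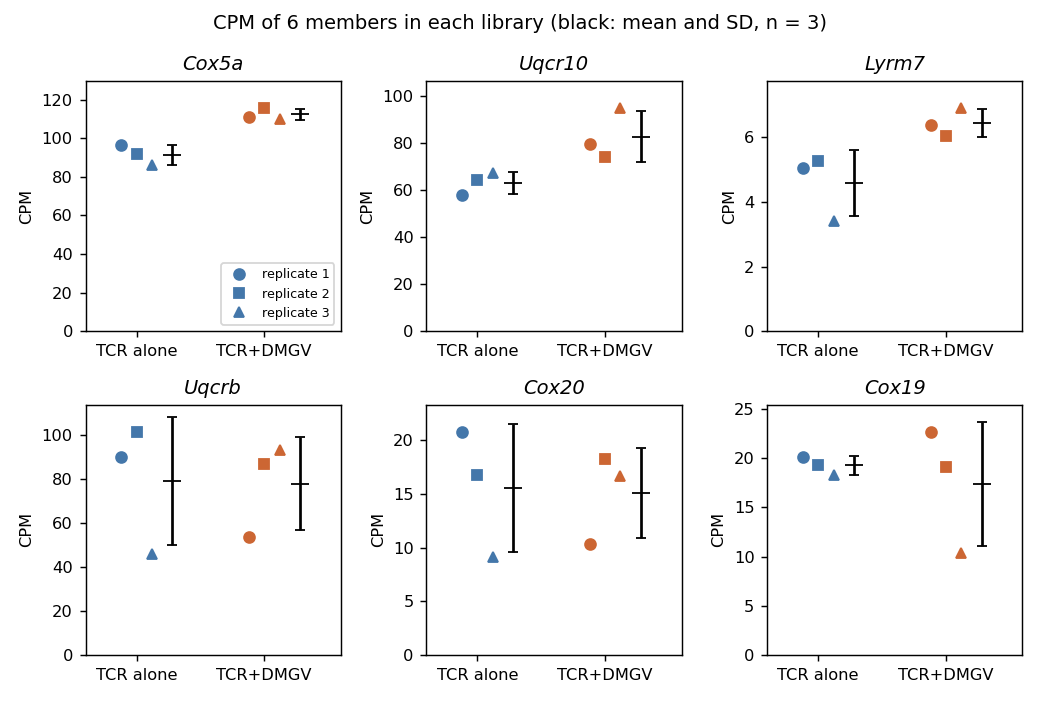
CPM of 6 members in each library, with replicate number as marker shape and the mean and SD (n = 3) in black. Cox5a, Uqcr10 and Lyrm7 do not overlap between groups, Uqcrb and Cox20 are low in TCR alone replicate 3 and TCR+DMGV replicate 1, and Cox19 is low in TCR+DMGV replicate 3.

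The promoter windows of members whose starts are held by RefSeq (GRCm38.p6, 250 bases before to 50 after the start) were searched on both strands for GCGCA and GCGC with any 1 base between them (a core of the NRF1 motif), CCGGAAG (a core bound by ETS factors such as GABP) and AAGATGGCG (a YY1 core), factors known for control of respiratory chain genes. A window was found for 32 of the 40 members, 33 windows in all. CCGGAAG was found in 14 of these windows (42.4%), belonging to 13 genes, beside 8.86% of all 32851 windows of the same length. That background was not restricted to genes tested here, so a share over expressed genes is not given. The NRF1 core was found in 3 windows (9.09%, beside 4.6% of all windows), those of Uqcrc1, Cox6a1 and Uqcc2. AAGATGGCG was found in 1 window (Cox10), 3.03% beside 1.40%. CCGGAAG lay in 5 of 14 windows of subunits and cytochrome c and in 9 of 17 of assembly factors. Cox5a, Uqcr10 and Lyrm7, the genes with the smallest p, held none of these letters in their windows. Of the genes with the NRF1 core, Uqcrc1 had the lowest log2 fold change of complex III (-0.08). Those of Cox6a1 (0.18) and Uqcc2 (0.08) were above 0. No relation between motifs and change was tested. The windows of Uqcr10, Cox5a, Uqcrc1 and Cox6a1 are shown. They set 2 members of smallest p beside members that carry the motifs. Motif matches are in capitals, and all sequence is written along the strand of the gene. Uqcr10 lies at chr11:4704295-4704594 (minus strand), Cox5a at chr9:57520982-57521281 (plus strand), Uqcrc1 at chr9:108936398-108936697 (plus strand) and Cox6a1 at chr5:115348909-115349208 (minus strand).
Uqcr10: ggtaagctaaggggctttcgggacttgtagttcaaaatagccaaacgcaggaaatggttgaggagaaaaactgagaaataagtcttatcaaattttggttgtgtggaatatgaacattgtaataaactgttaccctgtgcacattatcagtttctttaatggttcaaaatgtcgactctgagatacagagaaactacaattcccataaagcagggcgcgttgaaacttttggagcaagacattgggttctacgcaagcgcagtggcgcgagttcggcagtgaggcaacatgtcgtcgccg
Cox5a: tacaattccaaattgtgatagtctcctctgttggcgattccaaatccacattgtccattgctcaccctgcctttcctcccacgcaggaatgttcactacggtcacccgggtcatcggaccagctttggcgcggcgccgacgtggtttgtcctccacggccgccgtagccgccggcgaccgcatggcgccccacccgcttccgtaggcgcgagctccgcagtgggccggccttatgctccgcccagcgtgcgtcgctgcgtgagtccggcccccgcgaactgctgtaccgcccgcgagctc
Uqcrc1: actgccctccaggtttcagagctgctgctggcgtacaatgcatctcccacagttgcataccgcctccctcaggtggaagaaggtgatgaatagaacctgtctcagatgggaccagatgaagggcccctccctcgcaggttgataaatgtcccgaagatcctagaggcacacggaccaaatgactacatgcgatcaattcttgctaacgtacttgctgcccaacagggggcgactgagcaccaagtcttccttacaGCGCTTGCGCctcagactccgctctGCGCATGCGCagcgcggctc
Cox6a1: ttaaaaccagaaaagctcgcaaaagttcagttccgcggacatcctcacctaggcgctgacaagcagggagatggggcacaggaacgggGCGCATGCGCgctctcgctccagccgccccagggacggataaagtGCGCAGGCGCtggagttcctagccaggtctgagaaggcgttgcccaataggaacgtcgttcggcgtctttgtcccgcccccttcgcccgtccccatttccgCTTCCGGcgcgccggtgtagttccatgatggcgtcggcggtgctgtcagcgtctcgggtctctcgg
The capitals in Uqcrc1 are matches of the NRF1 core. Those in Cox6a1 are matches of the NRF1 core and, nearer the start, CCGGAAG read on the other strand. A match of letters is a description of the window, and no binding was measured in these samples.

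Among the subunits of complex III, 7 of 9 log2 fold changes were above 0 and 0 passed the adjusted test, with a median of 0.13 and a range of -0.08 to 0.39. The highest in level per length was Uqcrc1, a core protein of the complex, at 178 FPKM. Uqcrc1 measured 290, 333 and 373 CPM in TCR alone and 320, 319 and 305 CPM in TCR+DMGV, so that the TCR+DMGV samples fell within the range of TCR alone (log2 fold change -0.08, SE 0.10). Uqcr11, a small accessory subunit and the lowest in level per length (56.0 FPKM), measured 22.7, 24.3 and 29.9 CPM and then 29.1, 26.3 and 41.5 CPM. The last value, of TCR+DMGV replicate 3, stood above the other 5 (log2 fold change 0.33, SE 0.19, unadjusted p = 0.129).

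Uqcrq, another small subunit, measured 90.6, 91.8 and 105.1 CPM in TCR alone and 108.9, 102.2 and 114.8 CPM in TCR+DMGV. Uqcrh, the hinge protein beside cytochrome c1, measured 72.5, 68.8 and 89.3 CPM and then 98.4, 78.3 and 94.5 CPM. Both genes overlapped between groups through TCR alone replicate 3 (Uqcrq log2 fold change 0.18, unadjusted p = 0.0850; Uqcrh 0.23, unadjusted p = 0.121). The cores Uqcrc2 and Cyc1, and Uqcrfs1, which encodes the Rieske protein itself, had log2 fold changes of 0.13, 0.09 and 0.08 with overlapping groups. Uqcrc2 shares 19.7% of its exon bases with Pdzd9 on the opposite strand, and counting by strand is not stated in the sources used here.

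Uqcrb, a small subunit near cytochrome b, varied between libraries more than between groups. It measured 89.8, 101.5 and 46.0 CPM in TCR alone and 53.6, 86.9 and 93.1 CPM in TCR+DMGV. The 2 low values are those of the 2 libraries that stood apart on the first component, and the log2 fold change was -0.02 with the widest interval of the complex III subunits (-0.77 to 0.73). Cox20, an assembly factor of complex IV, was low in the same 2 libraries, with 20.8, 16.8 and 9.11 CPM and then 10.4, 18.2 and 16.7 CPM. Hnrnpu, whose exons hold 91.1% of the exon bases of Cox20 on the opposite strand, was also lowest in these 2 libraries. Hnrnpu measured 1797, 2052 and 1535 CPM in TCR alone and 1700, 2135 and 2010 CPM in TCR+DMGV. Whether its reads entered the counts of Cox20 was not tested. Uqcrb and Cox20 were lower in those 2 libraries than in the other 4 by 0.90 and 0.89 on the log2 scale, and their transcripts hold 42.2% and 43.9% G and C. Across the 39 tested members, this difference between the 2 libraries and the other 4 correlated with GC content at a Pearson r of 0.54, beside 0.41 over 14758 tested genes with a known GC content, a description over genes of the same 6 libraries. Both groups contained 1 such library, and the part of GC content in the results was not tested gene by gene beyond the GC correction given below.

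Cytochrome c (Cycs), the mobile carrier between the complexes, measured 289.5, 341.2 and 292.6 CPM in TCR alone and 275.5, 312.4 and 330.8 CPM in TCR+DMGV. The groups overlapped over most of their range (log2 fold change -0.01, SE 0.10, 95% interval -0.25 to 0.23). Near-identical gene copies of Cycs held counts equal to 7.32% of its own, so part of its reads may have been divided with them.

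Among the subunits of complex IV, 9 of 10 log2 fold changes were above 0 and 0 passed the adjusted test, with a median of 0.16 and a range of -0.01 to 0.30. Cox8a and Cox6a1 had the highest level per length of the whole set, at 336 and 295 FPKM. Cox8a measured 182, 173 and 220 CPM in TCR alone and 216, 209 and 234 CPM in TCR+DMGV, so that only TCR alone replicate 3 reached the range of TCR+DMGV. Cox6a1, the form found outside muscle, showed the same arrangement, with 169, 167 and 197 CPM and then 199, 185 and 220 CPM. Their log2 fold changes were 0.20 (SE 0.11, unadjusted p = 0.107) and 0.18 (SE 0.10, unadjusted p = 0.120).

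The other complex IV subunits were Cox4i1, Cox5b, Cox6b1, Cox6c, Cox7a2, Cox7b and Cox7c. Cox4i1, the isoform used in most tissues, had a log2 fold change of -0.01 (95% interval -0.23 to 0.21). The remaining ones, without Cox7a2, lay between 0.11 (Cox5b) and 0.19 (Cox7c), and each overlapped between groups. Among the complex IV subunits, 12.8% of the exon bases of Cox5a are shared with Gm26631, 9.9% of those of Cox4i1 with Emc8 and 7.0% of those of Cox6c with Vps13b, each on the opposite strand.

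The Cox7a family differs by tissue and by function. Cox7a1, the form of heart and skeletal muscle, was not tested: it held 8 counts in all 6 samples together, 5 in TCR alone replicate 2 and 3 in TCR+DMGV replicate 3. Cox7a2, the form of most other tissues, measured 50.9, 40.4 and 56.9 CPM and then 61.2, 61.1 and 42.9 CPM, with 1 low sample in each group (log2 fold change 0.16, SE 0.18). Cox7a2l, which joins complex IV to complex III in supercomplexes, measured 79.4, 92.1 and 89.2 CPM and then 82.0, 80.2 and 95.8 CPM. Its groups overlapped (log2 fold change -0.02, SE 0.10). Cox7a2 and Cox7a2l had nearly equal levels per length, 71.0 and 71.2 FPKM, which differed by less than their spread between samples.

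The other tissue forms had few or no counts. Cox4i2 (lung), Cox7b2, Cox8b (muscle), Cox8c and Cyct (testis cytochrome c) had 0 counts in every sample, which allows up to 0.0795 CPM (3 counts in the shallowest sample, counting error only), and Cox6a2 (muscle) and Cox6b2 (testis) stayed at 0.517 CPM or less. The 37 genes of the mitochondrial chromosome, among them the complex III subunit mt-Cytb and the complex IV subunits mt-Co1, mt-Co2 and mt-Co3, were listed at 0 counts in all samples, so the core subunits encoded there could not be compared with the nuclear ones.

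**Figure D3:**
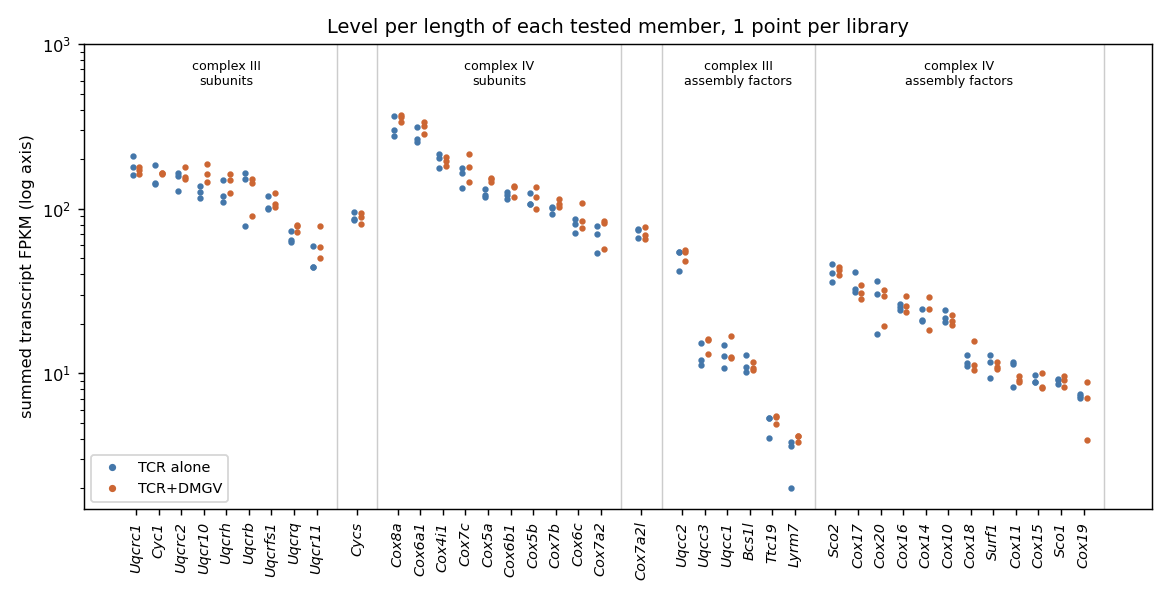
Level per length (summed transcript FPKM, log axis) of each tested member in each library, ordered within role. Every subunit lies above every assembly factor in mean level, and the points of both groups overlap for most genes.

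Subunits and assembly factors differed in level. The median level per length was 133 FPKM for the 20 subunits and cytochrome c and 12.8 FPKM for the 18 assembly factors, a ratio of 10.4. The lowest subunit, Uqcr11 (56.0 FPKM), lay next to the highest assembly factor, Uqcc2 (51.8 FPKM), and the ranges of these 2 genes over samples overlapped (44.5 to 79.0 and 42.0 to 56.4 FPKM). Within the complex IV subunits, means ran from 71.0 FPKM (Cox7a2) to 336 FPKM (Cox8a), for subunits that stand in equal number in the complex. These levels are sums of the deposited transcript FPKM. The deposited gene FPKM equalled the count divided by the length of all exons of all isoforms together, within 1%, for 32 of the 39 tested members. Cox6c, 1 of these 32, had a gene FPKM of 12.9, beside 84.4 FPKM when its transcripts were summed. The 7 tested members whose gene FPKM did not equal that quotient within 1% were Cyc1, Cox5b, Cox8a, Cox7a2l, Uqcc3, Lyrm7 and Sco2.

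All 6 assembly factors of complex III had a log2 fold change above 0 and 0 passed the adjusted test, with a median of 0.13 and a range of 0.01 (Ttc19) to 0.49 (Lyrm7). Uqcc1, Uqcc2 and Uqcc3 act on newly made cytochrome b. Uqcc3 measured 10.4, 14.5 and 11.02 CPM in TCR alone and 14.6, 12.5 and 15.4 CPM in TCR+DMGV, with overlap through TCR alone replicate 2 (log2 fold change 0.24, SE 0.17). Uqcc1 measured 37.5, 28.8 and 32.9 CPM and then 33.2, 35.2 and 43.98 CPM (log2 fold change 0.18, SE 0.15), and Uqcc2, the most abundant of the 6 per length, 23.3, 31.3 and 30.1 CPM and then 31.0, 27.4 and 31.4 CPM (0.08, SE 0.13). Bcs1l, which inserts the Rieske protein that Lyrm7 holds, had a log2 fold change of 0.06 (SE 0.13).

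Among the 12 assembly factors of complex IV, 5 log2 fold changes were above 0 and 7 below, 0 passed the adjusted test, and the median was -0.02 with a range of -0.16 to 0.13. The enzymes of heme A synthesis, Cox10 and Cox15, had log2 fold changes of -0.05 (SE 0.10) and -0.02 (SE 0.11). Surf1, which acts in the heme step of mt-Co1, had -0.04 (SE 0.15). The copper carriers Cox17, Sco1, Sco2, Cox11 and Cox19 lay between -0.16 and 0.06.

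Cox11, which delivers copper to mt-Co1, measured 15.5, 15.3 and 10.97 CPM in TCR alone and 11.7, 12.4 and 13.4 CPM in TCR+DMGV, with overlap through TCR alone replicate 3 (log2 fold change -0.16, SE 0.16). Cox19, the least abundant factor of complex IV per length (6.96 FPKM), measured 20.2, 19.3 and 18.3 CPM and then 22.7, 19.1 and 10.4 CPM. Its log2 fold change of -0.15 (SE 0.26) rested on TCR+DMGV replicate 3 and was 0.12 without that sample. Sco2, which loads copper into mt-Co2 and had the highest level of these factors (41.5 FPKM), measured 45.6, 53.4 and 57.9 CPM and then 55.9, 55.4 and 52.1 CPM (log2 fold change 0.06, SE 0.11).

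Cox14, a regulator of mt-Co1 synthesis, measured 16.9, 17.2 and 19.6 CPM and then 19.5, 15.1 and 24.0 CPM (log2 fold change 0.12, SE 0.18). Cox16, which acts on mt-Co2, measured 23.0, 26.3 and 23.1 CPM and then 22.7, 28.4 and 28.2 CPM (0.13, SE 0.12). Cox18 and Cox20, which insert and guard mt-Co2, had 0.07 (SE 0.19) and -0.04 (SE 0.33). All of these groups overlapped. Several of these genes share exon bases with a neighbour. Reads there could be assigned to either gene where the neighbour lies on the same strand, and also on the opposite strand if strand was not used. The shares are 91.1% of the exon bases of Cox20 (Hnrnpu, opposite strand), 66.2% of Sco2 (Ncaph2, opposite strand), 68.3% of Sco2 (Tymp, same strand), 56.8% of Cox16 (Gm20498, same strand) and 48.3% of Cox11 (Tom1l1, opposite strand). Ncaph2 measured 209.6, 242.8 and 250.0 CPM in TCR alone and 243.2, 234.7 and 230.2 CPM in TCR+DMGV. Its lowest and highest libraries were those of Sco2. Tom1l1 measured 7.29, 6.25 and 3.55 CPM and then 4.31, 4.99 and 6.91 CPM, with the lowest and highest libraries of Cox11. This was not so for Tymp beside Sco2 or Gm20498 beside Cox16. Whether reads of these neighbours entered the counts was not tested.

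**Figure D4:**
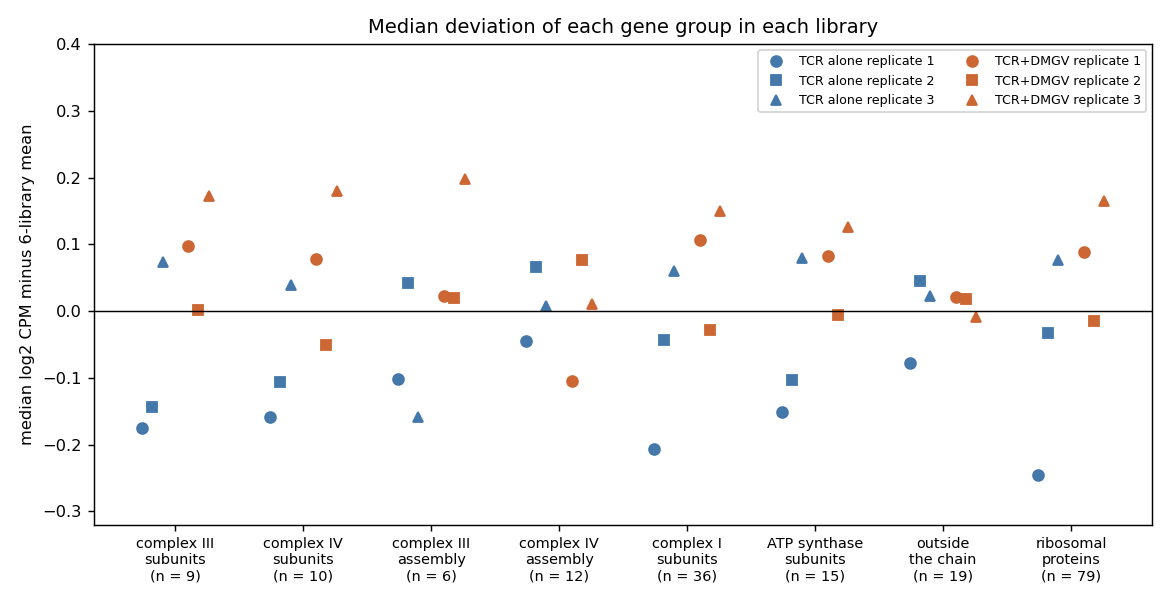
Median deviation of each gene group from its 6-library mean of log2 CPM, 1 point per library, with replicate number as marker shape. In the subunit groups of complexes I, III and IV, in ATP synthase and in the ribosomal proteins TCR alone replicate 1 is lowest and TCR+DMGV replicate 3 highest, and the 2 treatment groups overlap in each of these groups.

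The medians by library showed how the members moved together. For each gene the deviation from its mean over the 6 libraries was taken on the log2 CPM scale, and the median over the group is given. For the complex III subunits it was -0.17, -0.14 and 0.07 in TCR alone and 0.10, 0.00 and 0.17 in TCR+DMGV. For the complex IV subunits it was -0.16, -0.11 and 0.04 and then 0.08, -0.05 and 0.18. In both groups TCR alone replicate 3 lay above TCR+DMGV replicate 2, so that the treatment groups overlapped. For the complex III assembly factors it was -0.10, 0.04 and -0.16 and then 0.02, 0.02 and 0.20, and for the complex IV assembly factors -0.04, 0.07 and 0.01 and then -0.11, 0.08 and 0.01. The subunit median minus the assembly factor median was -0.09, -0.17 and 0.08 in TCR alone and 0.14, -0.04 and 0.04 in TCR+DMGV, with overlap between the treatment groups.

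TCR alone replicate 1 was the lowest of the 6 libraries for 11 of the 20 subunits and cytochrome c and for 4 of the 18 assembly factors, beside 21.8% of all tested genes. TCR+DMGV replicate 3 was the highest for 9 and 7 of them, beside 15.2% of all tested genes. Without TCR alone replicate 1 the median log2 fold change of the complex III subunits was 0.06 in place of 0.13, and that of the complex III assembly factors was 0.08. Without TCR+DMGV replicate 3 the complex III assembly factors had a median of 0.05 and the complex IV subunits 0.10. Without TCR alone replicate 3 the medians of the complex III and complex IV subunits were 0.21 and 0.22, and 7 members were higher at an unadjusted p under 0.05 (Cyc1, Uqcrh, Uqcrq, Uqcr10, Cox5a, Cox6a1 and Cox8a) and 1 lower (Cox11), beside 3.58% and 3.72% of all tested genes in that fit.

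With TCR alone replicate 3 and TCR+DMGV replicate 1 both left out, 2 samples against 2, no member passed the adjusted test (smallest adjusted p 0.733). In that fit 8 of 39 members were higher at an unadjusted p under 0.05 and 0 lower, beside 2.90% and 3.63% of all tested genes. These were Cyc1, Uqcrh, Uqcrq, Uqcr10, Uqcr11, Cox5a, Cox6a1 and Cox8a, all of them subunits. The medians were 0.22 for the complex III subunits, 0.20 for those of complex IV, 0.19 for the complex III assembly factors and 0.04 for the complex IV assembly factors.

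The ribosomal protein genes, another group of short, abundant mRNAs, had values of the same size. Of the 79 ribosomal protein genes, 78 had a log2 fold change above 0, with a median of 0.15, a median transcript length of 851 bases and 0 genes past the adjusted test. By library their median was -0.25, -0.03 and 0.08 and then 0.09, -0.01 and 0.16. The complex IV subunits had a median transcript length of 658 bases, the complex III subunits 1363 bases, and all tested genes 2509 bases. The complex III assembly factors had medians of 2040 bases and 12.3 FPKM, with a median log2 fold change of 0.13. After a correction for transcript length the median of the complex IV subunits was 0.06 in place of 0.16, that of the complex III subunits 0.11 and that of the complex III assembly factors 0.11. After a correction for GC content the medians of the complex III and IV subunits were 0.16 and 0.14.

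The other complexes of the pathway were described from lists outside the 40 genes. Of 36 complex I subunits, 35 had a log2 fold change above 0 (median 0.13), 1 was higher at an unadjusted p under 0.05 and 0 passed the adjusted test. Ndufa12 measured 43.7, 43.96 and 53.2 CPM and then 58.0, 52.7 and 65.3 CPM (0.32, unadjusted p = 0.0335), and Ndufa5 had 0.36 (unadjusted p = 0.0509). Of 15 ATP synthase subunits, 14 were above 0 (median 0.09), 2 of them at an unadjusted p under 0.05 and 0 at an adjusted one. These were the genes of the membrane ring protein Atp5g3 (0.29, unadjusted p = 0.0392) and Atp5g2 (0.25, unadjusted p = 0.0408), whose groups did not overlap. Without overlap in the higher direction were also 2 complex I subunits, Ndufab1 and Ndufc1 (unadjusted p = 0.154 and 0.118 with edgeR). Among all tested genes, 1.63% were higher at an unadjusted p under 0.05, and 4.92% did not overlap in the higher direction.

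Of 19 genes of the mitochondrial membranes and matrix outside the chain, such as Tomm20, Cs and Vdac1, 13 were above 0 with a median of 0.01, and 0 passed the adjusted test. The 2 of smallest p were Phb and Phb2, the prohibitins (0.15 and 0.10, unadjusted p = 0.164 and 0.270). Of 20 further factors of complexes III and IV, 19 were tested, 13 were above 0 and 0 passed the adjusted test, with a median of 0.07. Coa4, a copper-linked assembly factor, had 0.43 (SE 0.19, unadjusted p = 0.0601), and Apopt1, also called Coa8, had 0.18 (SE 0.09, unadjusted p = 0.0881). No difference between these lists and the 40 genes was tested, since the lists share all samples.

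In the transcript table, the 40 genes had 161 transcripts with counts, of which 111 were tested. None of them passed the adjusted test, and among all 38401 tested transcripts 0 passed (smallest adjusted p 0.217). At an unadjusted p under 0.05 there were 2 member transcripts, beside 3.22% of all tested transcripts. They were the main transcript of Cox5a (TCR alone 3490, 3568 and 3358 and TCR+DMGV 4636, 4755 and 4133 counts before scaling to depth, log2 fold change 0.29) and that of Uqcr10 (1781, 2183 and 2276 and then 2918, 2559 and 3171, log2 fold change 0.40). The main coding transcript of Lyrm7 had 157, 155 and 67.0 counts and then 228, 237 and 250 (0.83, SE 0.41, unadjusted p = 0.0939), a low number of reads for a gene whose difference is the largest of the set.

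For 35 of the 39 tested members 1 transcript held the most counts in every sample. The exceptions were Bcs1l, Uqcc1, Cox16 and Cox18. In Uqcc1 the counts of the coding transcript ENSMUST00000109636.10 were 287, 1079 and 838 (TCR alone) and 915, 1431 and 979 (TCR+DMGV), while ENSMUST00000136933.7, annotated for nonsense-mediated decay, had 1084, 20.0 and 79.0 and then 412, 43.0 and 458. The decay transcript led in TCR alone replicate 1 only, where the coding one was lowest. In Cox18 the coding transcript ENSMUST00000118816.5 had 223, 344 and 228 counts and then 132, 239 and 406, and ENSMUST00000048363.9 had 114, 162 and 110 and then 271, 135 and 115, so that the second led in TCR+DMGV replicate 1. In Cox16 ENSMUST00000110340.8 had 442, 435 and 487 counts and then 512, 598 and 452, beside 310, 486 and 390 and then 407, 473 and 573 for ENSMUST00000002757.10. In Bcs1l ENSMUST00000113733.9 had 398, 507 and 704 counts and then 632, 364 and 574, beside 170, 195 and 216 and then 193, 377 and 256 for ENSMUST00000027358.10. The order of the pair turned in TCR alone replicate 2 and TCR+DMGV replicate 3 for Cox16 and in TCR+DMGV replicate 2 for Bcs1l. These transcript counts are estimates that divide shared exons between isoforms, and none of the switches followed the treatment.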

How the data were processed

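RNA of 6 samples was sequenced, 3 TCR alone and 3 TCR+DMGV. The authors filtered reads with SOAPnuke, mapped them with HISAT2 2.0.4 (named in the submitters' processing notes, as is the mm9 build) and calculated expression with StringTie. They deposited whole-number estimated counts per gene and transcript, which are not normalized, and FPKM values, which the authors scaled to length and depth. For transcripts whose versioned identifier is in GENCODE M21 and that hold over 2000 counts, counts divided by FPKM times length were constant within 0.408% in a sample, so the counts were treated as estimates. Transcripts with another version, such as that of Cyc1, may have had another length. Strand use in counting is not given in the sources used here. The notes name mm9, but 93.3% of gene identifiers with version, and 99.7% without, match GENCODE M21 (GRCm38), from which all symbols, gene coordinates and overlaps were taken. The labels state a lower number of reads than the count sums of 37758725 to 43718867, and the difference is not explained in the sources used here. No column was left out (0 unused).

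The deposited gene counts were tested in R 4.3.3 with the quasi-likelihood test of edgeR 4.0.16 (TMM, default low-count filter, two-sided, Benjamini-Hochberg over 14786 genes, threshold 0.05), and transcripts likewise. Intervals are 95% and unadjusted. Single genes also had an exact permutation test on log2 CPM (prior count 2). Fits were tested on simulated data. Alternatives used DESeq2 1.42.0, limma 3.58.1 on log2(FPKM + 1) or log2(FPKM + 0.1), other scalings and filters, loess corrections (span 0.3) for length and GC content, a replicate block and left-out samples. Near-identical copies were sought with BLAST 2.17.0 at 95% identity over 150 bases. Python 3.11.15, pandas 2.3.3 and matplotlib 3.10.9 served for tables and figures.

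The 40 genes, their role groups and all lists were chosen with earlier results of these data known, so no test over a list was made. Of the 40 genes, values in every sample were given for Cox5a and Uqcr10, which the study names, and up to 3 of smallest p in each role group. They were also given for the highest and lowest per length in each, the Cox7a family and Cycs. Uqcrb and Cox20 were added after their values were seen. The legend of the study gives independent biological samples. Pairs of samples differed by more than sampling noise (median chi-square per gene 3.89 to 8.93). Intervals of counts cover the spread between these samples.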

Additional observations from a re-analysis of the deposited data

How the results depend on the processing

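No member and no member transcript passed the adjusted test under any of the 20 alternatives for genes or the 9 for transcripts. At an unadjusted p under 0.05 the number of members was 3, and it ranged from 2 to 8 over the alternatives. Whether the replicate numbers pair the samples is not given in the sources used here. Deviations of same-numbered samples correlated at -0.154, 0.121 and -0.148. These values cannot decide it, since the 2 libraries that stood apart carry different replicate numbers. With the number as a replicate block 0 members and 0 of all genes passed, 3 members were higher at an unadjusted p under 0.05 (Uqcr10, Uqcr11 and Cox5a, beside 1.17% of all genes higher and 1.13% lower in that fit), and the medians of the complex III subunits, complex IV subunits, complex III assembly factors and complex IV assembly factors were 0.14, 0.15, 0.14 and -0.01. The number of all genes passing was 2, and 14 with DESeq2, 12 without the 2 libraries that stood apart, 4 with the GC correction, 3 with limma on log2 CPM (added after seeing the data), 1 with library size alone or with all genes kept, 0 with FPKM or with the GC correction and replicate block, and 0 to 5 when 1 sample was left out. Of all transcripts, 0 passed with edgeR and 400 with DESeq2, and 0 to 1 when 1 sample was left out. The cause was not tested.

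The 4 group medians moved by less than 1 SD between samples under every alternative. That SD was 0.11 for the complex III subunits, beside a median of 0.13. A median could thus lose most of its size and still stay within it. When 1 sample was left out they ranged from 0.06 to 0.21 (complex III subunits), 0.10 to 0.23 (complex IV subunits), 0.05 to 0.18 (complex III assembly factors) and -0.04 to 0.03 (complex IV assembly factors). Under the other alternatives, the ratio of mean summed transcript FPKM included (added after seeing the data), they ranged from 0.11 to 0.22, 0.06 to 0.20, 0.11 to 0.19 and -0.04 to 0.04.

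Of the 39 tested members, 20 kept the sign of the log2 fold change under every alternative for genes, and 19, with reported values from -0.15 (Cox19) to 0.12 (Cox14), turned under at least 1. Without both libraries that stood apart Uqcrc1 was 0.0030, Cycs 0.031, Cox4i1 0.015, Cox7a2l 0.040, Ttc19 -0.12, Cox10 0.040, Cox15 0.059, Surf1 0.046 and Cox17 0.012. With the GC correction, with or without the replicate block, Uqcrb was 0.070, Cycs 0.065 and Cox20 0.024. With the length correction Cycs was 0.000301, Uqcc2 -0.027, Cox15 0.00631 and Cox18 -0.0013. Uqcrb was 0.016 with limma on log2 CPM, 0.000602 with log2(FPKM + 0.1), 5.47e-05 with log2(FPKM + 1) and 0.0084 with the replicate block, and Sco1 was -0.00048 with log2(FPKM + 0.1) and -0.000214 with log2(FPKM + 1). With 1 sample left out the ranges were -0.18 to 0.018 (Uqcrc1), -0.29 to 0.20 (Uqcrb), -0.067 to 0.070 (Cycs), -0.10 to 0.044 (Cox4i1), -0.033 to 0.22 (Cox5b), -0.099 to 0.033 (Cox7a2l), -0.012 to 0.18 (Bcs1l), -0.053 to 0.16 (Uqcc2), -0.15 to 0.17 (Ttc19), -0.11 to 0.016 (Cox10), -0.13 to 0.033 (Cox15), -0.19 to 0.078 (Surf1), -0.18 to 0.058 (Cox17), -0.39 to 0.12 (Cox19), -0.038 to 0.058 (Sco1), -0.047 to 0.14 (Sco2), -0.050 to 0.28 (Cox14), -0.14 to 0.18 (Cox18) and -0.31 to 0.20 (Cox20). The 3 samples per group and the few reads of members such as Lyrm7 limit what can be seen. Whether the GC content that went with the 2 libraries that stood apart adds to this limit was not tested.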
